A study of Mus musculus with 20 samples.

Results

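The comparison set CD8+ T cells from tumours treated with pembrolizumab and ABL503 together (the Combination, 5 libraries) against CD8+ T cells from tumours of the control group (Control, 5 libraries). These 10 libraries were among 20 in the series, with 5 more of Pembrolizumab alone and 5 of ABL503 alone. All 4 groups were C57BL/6 mice of the genotype hPD-1/hPD-L1/h4-1BB, which carry human forms of the 3 proteins that the antibodies bind, and all bore MC38 tumours, a mouse colon carcinoma line made here to overexpress human PD-L1. Mice were randomised at a mean tumour volume of 150 to 200 mm3, and CD8+ tumour-infiltrating cells were sorted on day 4 of treatment. The labels call the control group only "control", and give no dose, no age and no number of sorted cells. Every gene with at least 1 FPKM (fragments scaled to transcript length and to the library's total) in 5 or more of the 20 libraries was tested, which gave 11794 of 45777 gene symbols. Changes are differences of mean log2(FPKM + 1), which understate fold changes at low FPKM, and genes were called passed where limma gave a Benjamini-Hochberg adjusted p under 0.05. Whether the 5 libraries within each group stem from different mice is not in the labels, so p measures the spread between these libraries.

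PD-1 is a receptor that dampens T-cell receptor signalling when it binds PD-L1, and the antibody pembrolizumab blocks that receptor. 4-1BB, encoded by Tnfrsf9, is a receptor of the TNF receptor family that appears on CD8+ T cells after antigen contact and supports their survival and killing, and ABL503 has 1 arm for PD-L1 and 1 arm for 4-1BB. CD8+ T cells in tumours pass from stem-like cells, which depend on the transcription factor TCF1, to effector and exhausted cells that hold granzymes and perforin and carry several inhibitory receptors.

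Library totals were alike, with summed FPKM of 583583 to 624037 in Control and 617696 to 639840 in the Combination. Genes above 0 numbered 18712 to 19303 and 18313 to 19224. Read counts and sequencing depth are unknown, so no counting error is given. On principal component 1 of 500 highly variable genes (17.1% of the variance), Control libraries lay between -18.0 and -5.5 and Combination libraries between 5.9 and 25.9, with Combination 5 and Combination 2 (20.4) farthest from Control. Markers of the sort were high in every library: Cd3e, a CD3 chain of the T-cell receptor, ran from 186 to 325 FPKM in Control and 229 to 321 in the Combination, and Cd8a, the alpha chain of CD8, rose from 279 ± 46.7 to 377 ± 61.0 (mean ± SD, n = 5; change 0.43, limma adjusted p = 0.013). Cd4, the marker of helper T cells, was at most 0.624 FPKM in these 10 libraries. The B-cell gene Ms4a1 and the neutrophil gene S100a8 were at 0 in all of them. Other B-cell genes were detected: the B-cell list summed to 140 to 216 FPKM in Control and to 42.9 to 295 in the Combination, and Cd79a reached 1.07. C1qa of macrophages was at 0 in the 5 Combination libraries and reached 0.901 FPKM in Control. Foxp3 of regulatory T cells reached 1.79 in Control and 0.978 in the Combination, and Klrb1c of NK cells 1.98 and 0.823. The list of tumour, fibroblast and endothelial genes summed to 13.7 to 21.4 FPKM in Control and to 7.73 to 14.9 in the Combination. Epcam of that list stood at 1.87 to 7.06 and at 0.981 to 2.5 and passed as lower. That call was lost without Control 1, Control 2, Control 4, Combination 1 or Combination 5. Krt8 and Col1a1 were at most 0.809 and 0.0606.

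In the Combination 1484 genes passed against Control (12.6% of those tested), of which 748 were higher (6.34%) and 736 lower (6.24%). The counts on gene lists below are to be read beside these shares. Perforin, granzymes B and C to F, glycolytic enzymes and 4-1BB were higher, and genes of stem-like cells and of MHC class II were lower. The change reached 1 or more on the log2 scale in 95 genes that rose and in 104 that fell. The 5 values of one group lay wholly above or below those of the other in 1043 genes (8.84%) of all tested, and among the genes that passed this held for 433 higher and 404 lower. The median change over all tested genes was -0.036. Leaving out Combination 2 reduced the number of genes passed to 957, 503 higher and 454 lower, and leaving out Control 1 reduced those lower to 458.

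**Figure D1:**
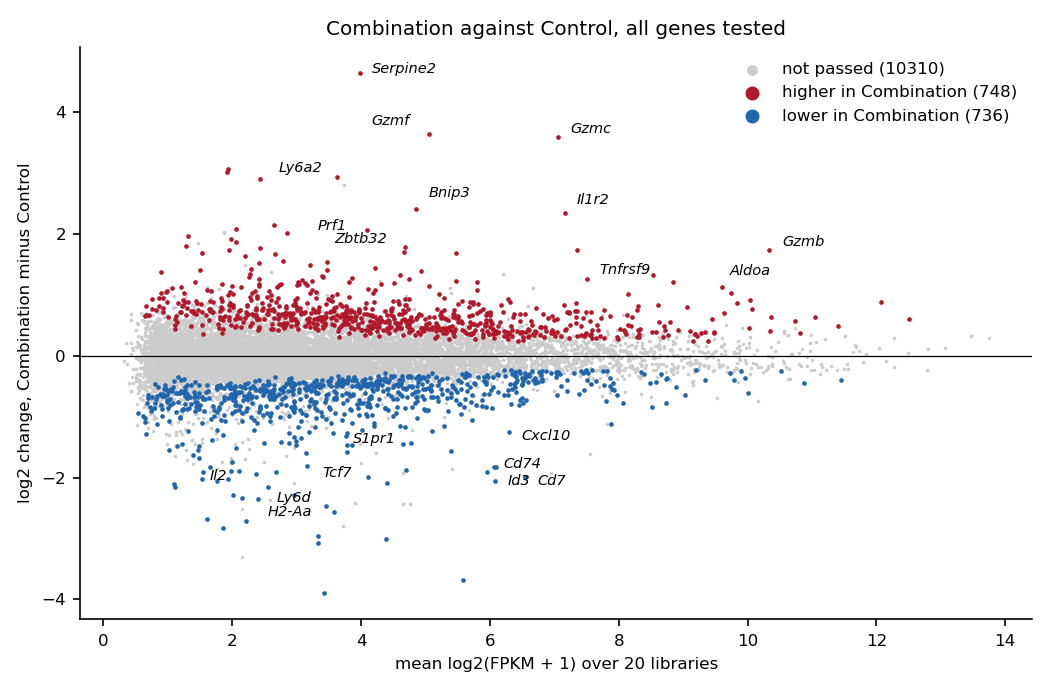
Each point is 1 of the 11794 genes tested, by its mean log2(FPKM + 1) over 20 libraries (horizontal axis) and its log2 change, Combination minus Control (vertical axis). Red points (748) were higher and blue points (736) lower at an adjusted p under 0.05, grey points did not pass, and Serpine2 has the largest change among the genes labelled.

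Of the genes of the antibody targets, Tnfrsf9 and Pdcd1 rose. Tnfrsf9 (4-1BB, chr4:150920155-150946104 in GRCm38) stood at 131, 101, 97.4, 103 and 104 FPKM in Control libraries 1 to 5 and at 248, 255, 230, 242 and 320 in Combination libraries 1 to 5. All Combination libraries were above all Control libraries, and the change was 1.26 (SE 0.12, limma adjusted p = 4.25e-06), the same adjusted p as Aldoa and the smallest in the comparison. Pdcd1, the gene of PD-1, rose from 47.3 ± 23.8 to 78.3 ± 18.2 FPKM (mean ± SD, n = 5; change 0.80, SE 0.24, limma adjusted p = 0.030). The Pdcd1 groups overlapped, since Control 5 stood at 88.1, and the call was lost on leaving out any of 6 of the 10 libraries, with the highest adjusted p of 0.093 without Control 1. Cd274, the gene of PD-L1, stood at 25.3 ± 5.74 in Control and at 17.3 ± 3.31 in the Combination and missed the threshold (limma adjusted p = 0.053). The labels do not say which part of each humanised gene is human, so the share of human transcript in these mouse-genome values is unknown. Of the 8 tested antibody targets and partners, 2 rose and 0 fell, and 1 fell without Control 2, Control 5 or Combination 1.

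The killing machinery of the T cell lies in granules that hold perforin, which opens the target membrane, and granzymes, which are proteases that pass through it. Of 19 tested cytotoxic granule proteins, 8 rose and 2 fell, with a median change of 0.58. Prf1, the perforin gene, stood at 3.83, 3.97, 7.59, 8.83 and 7.27 FPKM in Control and at 32.7, 32.5, 27.9, 20.7 and 28.8 in the Combination. No Combination library came near the Control range, and the change was 2.06 (SE 0.21, limma adjusted p = 9.42e-06). Gzmb, granzyme B, stood at 385, 569, 670, 774 and 767 in Control and at 2840, 2830, 1400, 1540 and 2000 in the Combination. Here too the groups did not overlap, with Combination 1 and 2 the highest (change 1.73, SE 0.20, limma adjusted p = 2.83e-05).

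A second group of granzyme genes, Gzmc to Gzmf, lies beside Gzmb on chromosome 14. Gzmc stood at 6.48, 167, 29.3, 17.1 and 20.3 FPKM in Control and at 145, 633, 90.7, 706 and 604 in the Combination. The groups overlapped, because Control 2 was above Combination 1 and Combination 3, while Combination 2, 4 and 5 were above every Control library. The change was 3.58 (SE 0.63, limma adjusted p = 0.0011). Gzmf stood at 6.13, 7.21, 15.3, 0.583 and 2.97 in Control and at 40.7, 171, 10.1, 244 and 90.5 in the Combination, and changed by 3.64 (SE 0.72, limma adjusted p = 0.0030). Combination 3 was the lowest of its group for Gzmc and Gzmf and lay inside the Control range for both. Gzme was listed at 0 in 3 Control libraries and at most at 1.18 there, and stood at 2.79 to 16.3 in the Combination. These genes are close copies of each other, so reads may have been divided among them in an unknown way.

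Other granule genes moved in both directions. Nkg7, a granule membrane protein needed for degranulation, rose from 4720 ± 1310 to 6940 ± 650 FPKM (change 0.60, limma adjusted p = 0.017). Gzma, granzyme A, did not pass (change 0.33, SE 0.34), at 199 to 381 FPKM in Control and 151 to 542 in the Combination. Gzmm, granzyme M, fell from 21.2 ± 3.23 to 8.40 ± 6.41 (change -1.47, limma adjusted p = 0.0065). Combination 1 stayed at 18.7 for Gzmm, inside the Control range of 17.4 to 24.9, while the other 4 lay between 3.66 and 10.5. Of 13 tested genes of granule exocytosis, 3 rose, among them Stx11, a syntaxin of granule fusion (change 0.69), and 1 fell, the synaptotagmin-like gene Sytl3 (-0.60). Without Control 1, Control 2 or Combination 2 the number that rose was 1, and without Control 2 or Control 3 the number that fell was 2.

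Serpine2, a secreted inhibitor of serine proteases (chr1:79794317-79858665 in GRCm38), had the largest rise of the named genes. It stood at 1.40, 6.42, 0.71, 0.434 and 1.52 FPKM in Control and at 60.2, 47.4, 41.0, 94.3 and 86.6 in the Combination. Every Combination library was far above the highest Control library, and the change was 4.63 (SE 0.45, limma adjusted p = 6.41e-06).

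**Figure D2:**
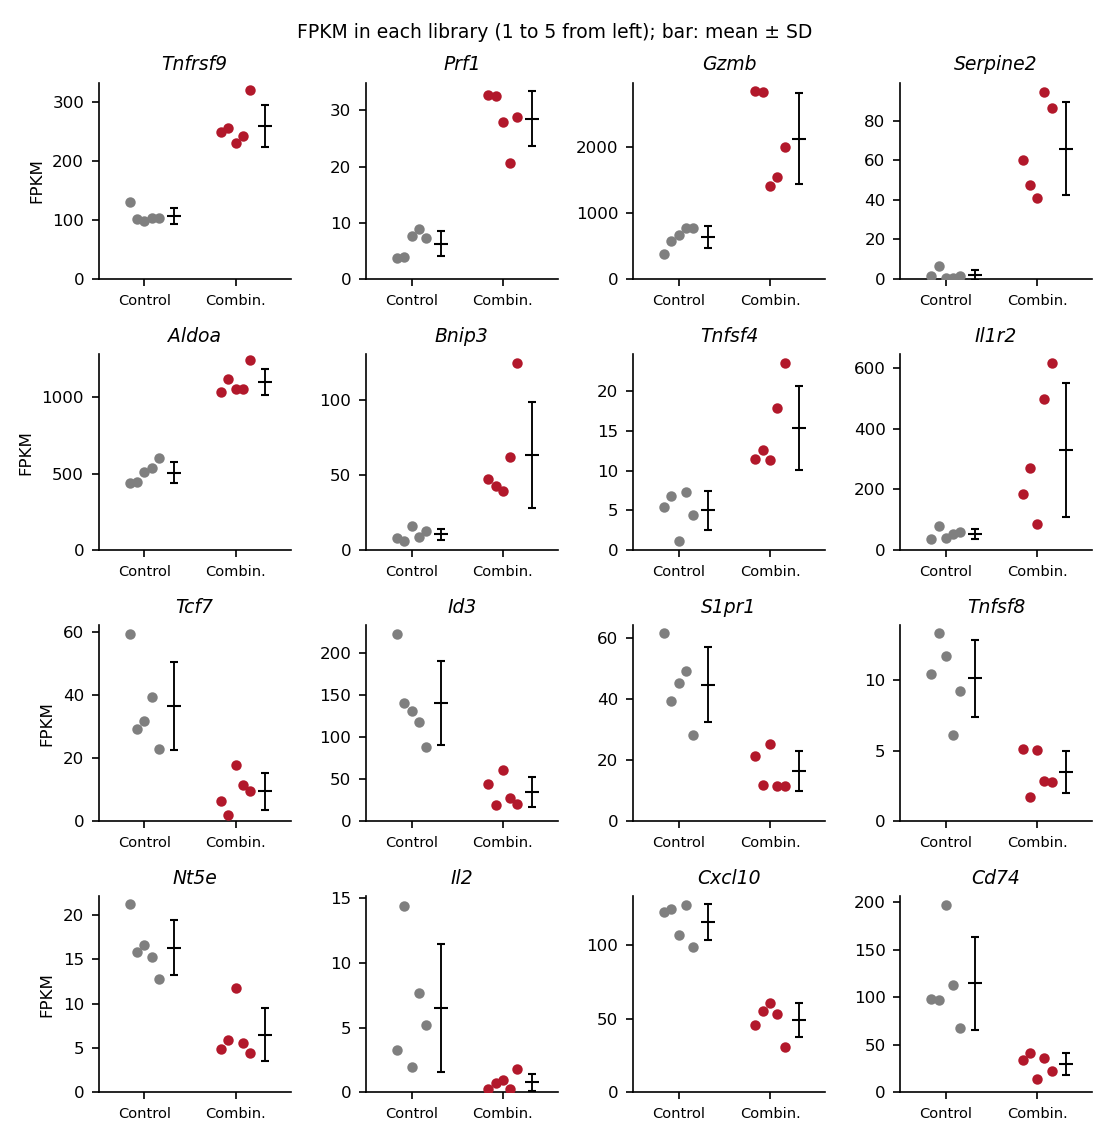
FPKM of 16 genes in each of the 5 Control (grey) and 5 Combination (red) libraries, ordered by library number from left to right within a group, with the mean ± SD as a bar beside the points and a vertical axis from 0. The groups do not overlap in any of the 16 panels, and in the panels of Bnip3 and Tnfrsf9 the highest point is Combination 5.

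Glycolysis was the list with the largest share of rising members. Of 20 tested genes of glycolysis and glucose uptake, 13 rose (65.0%) and 0 fell, with a median change of 0.68, and the same 13 rose on leaving out each of the 10 libraries in turn. Aldoa, which encodes an aldolase, stood at 437, 442, 513, 539 and 601 FPKM in Control and at 1030, 1120, 1050, 1050 and 1240 in the Combination. The groups were clearly apart, with a change of 1.12 (SE 0.10, limma adjusted p = 4.25e-06). Tpi1, triosephosphate isomerase, rose from 225 ± 27.7 to 570 ± 105 (change 1.33), Pgk1, phosphoglycerate kinase, from 186 ± 16 to 379 ± 65.4 (1.01), and Ldha, the lactate dehydrogenase subunit that makes lactate, from 681 ± 70.7 to 1230 ± 151 (0.85). Adjusted p for these 3 ran from 2.83e-05 to 8.54e-05. Gapdh, often used as a constant reference gene, rose from 830 ± 22.1 to 1410 ± 87.1 (change 0.76, limma adjusted p = 4.69e-05), and its groups did not overlap. Slc2a3, the glucose transporter GLUT3, rose from 7.34 ± 1.73 to 18.4 ± 4.98 (1.20), and Aldoc from 4.49 ± 2.29 to 13.6 ± 4.88 (1.48).

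Of 18 tested genes of hypoxia response and mitophagy, 6 rose and 0 fell (median change 0.16). Bnip3, which marks mitochondria for removal and is induced at low oxygen, stood at 8.31, 6.38, 16, 9.11 and 13.0 FPKM in Control and at 47.4, 42.8, 39.6, 62.5 and 125 in the Combination. Combination 5 was by far the highest and no values overlapped (change 2.40, SE 0.28, limma adjusted p = 3.31e-05). Ero1l, an oxidase of protein folding in the endoplasmic reticulum, changed by 0.67, P4ha1, a collagen prolyl hydroxylase, by 0.71, Ndrg1 by 0.96, Ankrd37 by 0.73 and the oxygen-sensing hydroxylase Egln1 by 0.46. The Egln1 call was lost without Control 2, Combination 4 or Combination 5 (limma adjusted p up to 0.069). Hypoxia-inducible factors are known to bind promoters at a core of ACGTG, so this core was searched on both strands (ACGTG or CACGT) in RefSeq promoter windows of 300 bases, around the gene start, in GRCm38.p6. A run of CACGTG holds both forms and counts as 2 matches. Of the 19 genes of these lists that rose, 15 had such a window, and 11 of these (73.3%) held a match in at least 1 window, beside 29.9% of the 8087 tested genes with a window and 19.6% of all 32851 windows. A match is a string of letters and not a binding site. The 19 genes come from lists of glycolysis and hypoxia response, and the share among list members that did not rise was not measured. Whether the core goes with a rise in these data was therefore not tested. The windows of 3 genes described above are shown, 5' to 3' on the gene's strand, with the matches in capitals: Bnip3 at chr7:138909457-138909756 (- strand, 2 matches), Pgk1 at chrX:106186850-106187149 (+ strand, 2 matches) and the first of 2 windows of Ldha at chr7:46845554-46845853 (+ strand, 5 matches).
Bnip3: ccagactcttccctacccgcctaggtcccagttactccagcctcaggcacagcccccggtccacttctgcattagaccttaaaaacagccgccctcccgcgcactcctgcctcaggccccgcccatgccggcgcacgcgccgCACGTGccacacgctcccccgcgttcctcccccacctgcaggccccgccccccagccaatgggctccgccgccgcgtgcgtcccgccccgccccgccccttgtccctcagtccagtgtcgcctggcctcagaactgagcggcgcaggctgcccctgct
Pgk1: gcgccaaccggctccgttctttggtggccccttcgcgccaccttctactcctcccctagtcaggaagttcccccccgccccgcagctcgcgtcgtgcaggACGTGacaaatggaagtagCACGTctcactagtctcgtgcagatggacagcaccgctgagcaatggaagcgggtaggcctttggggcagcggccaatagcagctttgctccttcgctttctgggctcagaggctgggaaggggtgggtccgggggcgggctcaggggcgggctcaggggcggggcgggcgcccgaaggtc
Ldha: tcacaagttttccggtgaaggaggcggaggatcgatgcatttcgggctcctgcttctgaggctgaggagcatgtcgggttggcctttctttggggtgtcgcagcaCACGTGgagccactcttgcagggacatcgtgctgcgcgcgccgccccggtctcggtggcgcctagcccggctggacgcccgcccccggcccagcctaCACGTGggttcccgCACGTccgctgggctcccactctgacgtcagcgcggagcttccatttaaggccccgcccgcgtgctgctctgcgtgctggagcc

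Among genes of lipid and mitochondrial metabolism, Plin2, which coats lipid droplets, rose from 13.0 ± 3.78 to 45.6 ± 15.4 FPKM (change 1.71, limma adjusted p = 0.0014). It was among 6 risers, with 0 falls, of 30 tested genes of the TCA cycle and fatty acid oxidation (median 0.29), a list that also held Fabp5, a fatty acid carrier (0.50), and the dehydrogenase Acadl (0.46). Acot7, an acyl-CoA thioesterase, rose from 104 ± 4.32 to 186 ± 28.3 (change 0.83, limma adjusted p = 3.13e-05), and Prelid1, a lipid carrier of mitochondria, from 585 ± 45.6 to 885 ± 32.9 (0.60). Of 43 tested nuclear subunits of oxidative phosphorylation 7 rose and 0 fell (median 0.11), among them Sdha (0.58), a subunit of succinate dehydrogenase. Without Control 1 or Combination 2 the number that rose was 2, and 1 fell without Combination 2. Of 13 tested mitochondrially encoded genes 0 passed. Of 22 tested genes of amino acid transport and serine synthesis 3 rose, led by Asns, asparagine synthetase (1.10), and 1 rose without Control 2 or Combination 2. Without Combination 3, 2 genes of that list fell.

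Genes of stem-like, naive and memory T cells were lower: of 28 tested, 13 fell and 1 rose, with a median change of -0.61. Tcf7, which encodes TCF1, stood at 59.4, 29.2, 31.8, 39.4 and 23 FPKM in Control and at 6.38, 2.10, 17.8, 11.6 and 9.54 in the Combination. The lowest Control library was above the highest Combination library, and the change was -2.0 (SE 0.42, limma adjusted p = 0.0041). Id3, an inhibitor of DNA-binding factors that memory precursors keep, stood at 223, 141, 131, 118 and 89.0 in Control and at 44.2, 19.6, 61.1, 27.3 and 21.1 in the Combination. Its groups did not overlap either (change -2.06, SE 0.27, limma adjusted p = 7.19e-05), and Control 1 was the highest for both genes. Klf3 (-1.58) and Klf2 (-1.17), a pair of zinc-finger factors of resting T cells, and Slamf6, a surface receptor of stem-like exhausted cells (-0.74), fell without overlap. Bcl2, which protects resting cells from death, fell by 0.89 on the log2 scale.

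Surface receptors of resting T cells were among these genes. S1pr1, the receptor by which T cells leave tissue along sphingosine 1-phosphate, stood at 61.7, 39.6, 45.3, 49.2 and 28.3 FPKM in Control and at 21.4, 11.9, 25.4, 11.7 and 11.7 in the Combination. All Combination values were below all Control values (change -1.43, SE 0.22, limma adjusted p = 0.00041). Il7r, the survival receptor for interleukin 7, changed by -0.72 (limma adjusted p = 0.025). Its groups overlapped, and the call was lost on leaving out any of 5 libraries, to 0.068 without Control 1. Of 33 tested genes of homing, adhesion and residency, 7 rose and 5 fell (median 0.08), and without Control 2 or Combination 1 those that fell numbered 3. Ccr2, a chemokine receptor for entry into inflamed tissue, rose from 17.7 ± 5.14 to 43.4 ± 10.1 FPKM (1.26, limma adjusted p = 0.00037), and Ly6a, the surface protein Sca-1, from 608 ± 135 to 1240 ± 298 (1.02). Ly6a2, a close relative of Ly6a that may share reads with it, rose from 4.42 ± 1.75 to 39.9 ± 11.2 (2.93, limma adjusted p = 2.83e-05). Cxcr4, the receptor for the chemokine CXCL12, fell from 22.7 ± 5.08 to 11.0 ± 2.80 (-0.98), and the tetraspanin Cd9 from 93.7 ± 10.8 to 54.9 ± 16.3 (-0.81).

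Of 28 tested transcription factors of effector and exhausted cells, 3 rose and 3 fell (median -0.06). Those that fell numbered 1 without Control 1, Control 2, Combination 2 or Combination 5. Zbtb32, a transcriptional repressor of activated lymphocytes, stood at 6.30, 11.6, 8.28, 10.6 and 6.23 FPKM in Control and at 47.1, 40.3, 28.6, 15.7 and 33.8 in the Combination. The groups did not overlap, and Combination 4 was the closest to Control (change 1.78, SE 0.24, limma adjusted p = 7.39e-05). Irf8, an interferon regulatory factor, rose from 15 ± 3.69 to 41.3 ± 10.1 (1.39, limma adjusted p = 4.60e-05), and Zeb2, a factor of terminal effectors, from 1.37 ± 0.327 to 2.97 ± 0.769 (0.73). Tbx21, which encodes T-bet, changed by -0.58 (limma adjusted p = 0.038), a call lost on leaving out any of 6 libraries, to 0.11 without Combination 5. Tox, a factor of exhausted cells, did not pass (change -0.15, SE 0.33), with Combination libraries spread from 1.74 to 15.6 around Control values of 4.86 to 7.61. Eomes (-0.19), Prdm1 (0.11) and Id2 (0.32), further regulators of effector fate, did not pass.

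Of 17 tested inhibitory receptors, 1 rose and 3 fell (median 0.25), and without Control 5 those that rose numbered 4. Havcr2, the gene of TIM-3, rose from 42.6 ± 10.5 to 69.6 ± 13.4 FPKM (0.71, limma adjusted p = 0.0041). Ctla4 (0.29, SE 0.15) and Lag3 (0.64, SE 0.24) did not pass. Nt5e, the gene of CD73, which makes adenosine outside the cell, stood at 21.2, 15.8, 16.6, 15.2 and 12.8 in Control and at 4.85, 5.87, 11.8, 5.61 and 4.39 in the Combination. Combination 3 was the highest of its group and still below every Control library (change -1.27, SE 0.22, limma adjusted p = 0.00088). Btla (-0.88) and Cd101 (-0.45), a pair of inhibitory surface receptors, also fell, and the Cd101 call was lost without Control 2 (limma adjusted p = 0.079) or any of 4 other libraries.

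Costimulatory ligands of the TNF family moved in both directions. Of 21 tested costimulatory receptors and ligands, 3 rose and 4 fell (median -0.05). Tnfsf4, the gene of OX40 ligand, stood at 5.43, 6.78, 1.12, 7.32 and 4.36 FPKM in Control and at 11.5, 12.6, 11.3, 17.8 and 23.5 in the Combination. No values overlapped (change 1.53, SE 0.29, limma adjusted p = 0.0022). Cd70, the ligand of CD27, rose from 2.12 ± 1.48 to 13.5 ± 9.14 (2.0, limma adjusted p = 0.0073), although Combination 1, at 2.76, lay inside the Control range. Tnfsf8, the gene of CD30 ligand, stood at 10.4, 13.3, 11.7, 6.08 and 9.21 in Control and at 5.10, 1.72, 5.03, 2.83 and 2.81 in the Combination. All Combination libraries were below Control (change -1.33, SE 0.21, limma adjusted p = 0.00039). Tnfsf14, the gene of LIGHT, fell from 8.79 ± 2.53 to 3.72 ± 1.53 (-1.07), and Tnfrsf25, the receptor DR3, by 1.06 on the log2 scale. Tnfsf9, the gene of 4-1BB ligand, did not pass (-0.29, SE 0.27).

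Of 25 tested cytokine receptors and SOCS regulators, 2 rose and 4 fell (median -0.08). Il1r2, a decoy receptor for interleukin 1, stood at 37.5, 79.0, 38.8, 54.5 and 58.8 FPKM in Control and at 185, 271, 86.0, 499 and 617 in the Combination. Combination 3 was only just above the highest Control library, whereas Combination 4 and 5 were the highest (change 2.34, SE 0.39, limma adjusted p = 0.00081). Il2ra, the high-affinity chain of the interleukin 2 receptor, rose from 16.1 ± 1.72 to 31.0 ± 10.4 (0.83), and Socs3, a feedback inhibitor of cytokine signalling, fell by 0.90 on the log2 scale. Of 21 tested cytokines and chemokines, 3 rose and 5 fell (median 0.15). Il2, the T-cell growth factor, stood at 3.27, 14.4, 1.97, 7.67 and 5.22 in Control and at 0.245, 0.709, 0.973, 0.238 and 1.82 in the Combination. Both groups were low, Control 2 was the highest, and the groups did not overlap (change -1.90, SE 0.34, limma adjusted p = 0.0013).

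Cxcl10, a chemokine induced by interferon gamma, stood at 122, 124, 107, 127 and 98.5 FPKM in Control and at 45.5, 55.5, 60.4, 53.2 and 31.1 in the Combination. Its groups were far apart (change -1.25, SE 0.16, limma adjusted p = 4.60e-05), and Combination 5 was the lowest. Il10, an anti-inflammatory cytokine, stood between 7.53 and 13.6 in Control and between 1.24 and 6.87 in the Combination and fell (-1.41), and Flt3l, a growth factor for dendritic cells, from 39.6 ± 9.24 to 21.4 ± 3.63 (-0.84). Ccl3, a chemokine that draws myeloid and T cells, rose from 279 ± 167 to 601 ± 177 (1.21, limma adjusted p = 0.0042). Ifng, interferon gamma itself, stood at 437 to 835 in Control and at 652 to 1060 in the Combination and just missed the threshold (0.50, SE 0.17, limma adjusted p = 0.051). Of 34 tested genes of the interferon gamma response and MHC class I, 4 rose and 4 fell, and without Control 2 or Combination 2 those that rose numbered 2. Psmb9, an immunoproteasome subunit, rose by 0.66, and H2-Q4, an MHC class I gene, fell by 0.66. Of 34 tested type I interferon genes, 3 rose and 4 fell, with Mx1, an antiviral GTPase, at 0.69 and Oasl2 at -0.88. Without Control 1, Control 2 or Combination 2 the number that fell was 1, and without Control 5 the number that rose was 5.

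Genes induced at once by the T-cell receptor were lower more often than higher: of 31 tested, 9 fell and 1 rose (median -0.29). Btg1, which restrains proliferation and is high in resting cells, fell from 291 ± 34.3 to 175 ± 22.2 FPKM (-0.74, limma adjusted p = 0.00057), and Zfp36l2, which destabilises messenger RNA, from 64.8 ± 4.79 to 33.8 ± 9.41 (-0.96). Nr4a1, a nuclear receptor used as a reporter of receptor signalling, fell from 22.2 ± 5.54 to 10.9 ± 3.62 (-0.98, limma adjusted p = 0.0069), while Klf6 rose by 0.63. Btg1 and Zfp36l2 are genes of quiescence as much as of activation. Without Combination 1 or 2 the number that fell was 6. Of 24 tested NF-kB subunits and feedback targets, 6 fell and 0 rose (median -0.26), among them Tnfaip8 (-0.68), Tnip1 (-0.59) and Tnfaip3, which encodes the inhibitor A20 (-0.42). The Tnfaip3 call was lost on leaving out any of 6 libraries, to 0.087 without Combination 2, and the number on the list that fell was 4 without Control 1 or Combination 2. Of 26 tested genes of cell survival, 3 rose and 6 fell, with the death effector Bax at 0.47 and the death receptor Fas at -0.85.

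Few genes of the 2 cell-cycle lists passed, 6.06% of each beside 12.6% over all genes tested. Of 33 tested genes of S phase, 0 rose and 2 fell, and of 33 of G2 and mitosis, 2 rose and 0 fell, although 29 of the latter had a positive change (median 0.32). The number that fell in S phase was 0 without Combination 4, and 2 rose without Combination 3. The number that rose in G2 and mitosis was 1 without Control 2, Combination 1 or Combination 2 and 4 without Control 5. Mki67, the proliferation marker, stood at 6.89 ± 1.81 FPKM in Control and at 7.84 ± 1.74 in the Combination and did not pass (0.17, SE 0.17). Of 32 tested genes of MYC and ribosome biogenesis, 6 fell and 0 rose (median -0.20), led by Gnl3, nucleostemin, from 53.6 ± 8.26 to 31.8 ± 4.67 (-0.73, limma adjusted p = 0.00041). All 44 tested cytosolic ribosomal proteins had a negative change (median -0.22), and 5 passed, with Rpl13a at -0.40. That is 11.4% of the list, beside 6.24% lower and 12.6% in either direction over all genes tested. The number of ribosomal proteins that fell was 2 without Control 1 and 10 without Control 5. Of 27 tested heat-shock proteins and chaperonins 1 passed, Dnajb1 (-0.36), and of 26 genes of cholesterol and fatty acid synthesis 1 passed, the regulator Srebf1 (-0.58). The Dnajb1 call was lost on leaving out any of 6 libraries and the Srebf1 call any of 9, Combination 2 among them in both. Without Combination 3, 2 heat-shock genes and 1 synthesis gene rose.

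**Figure D3:**
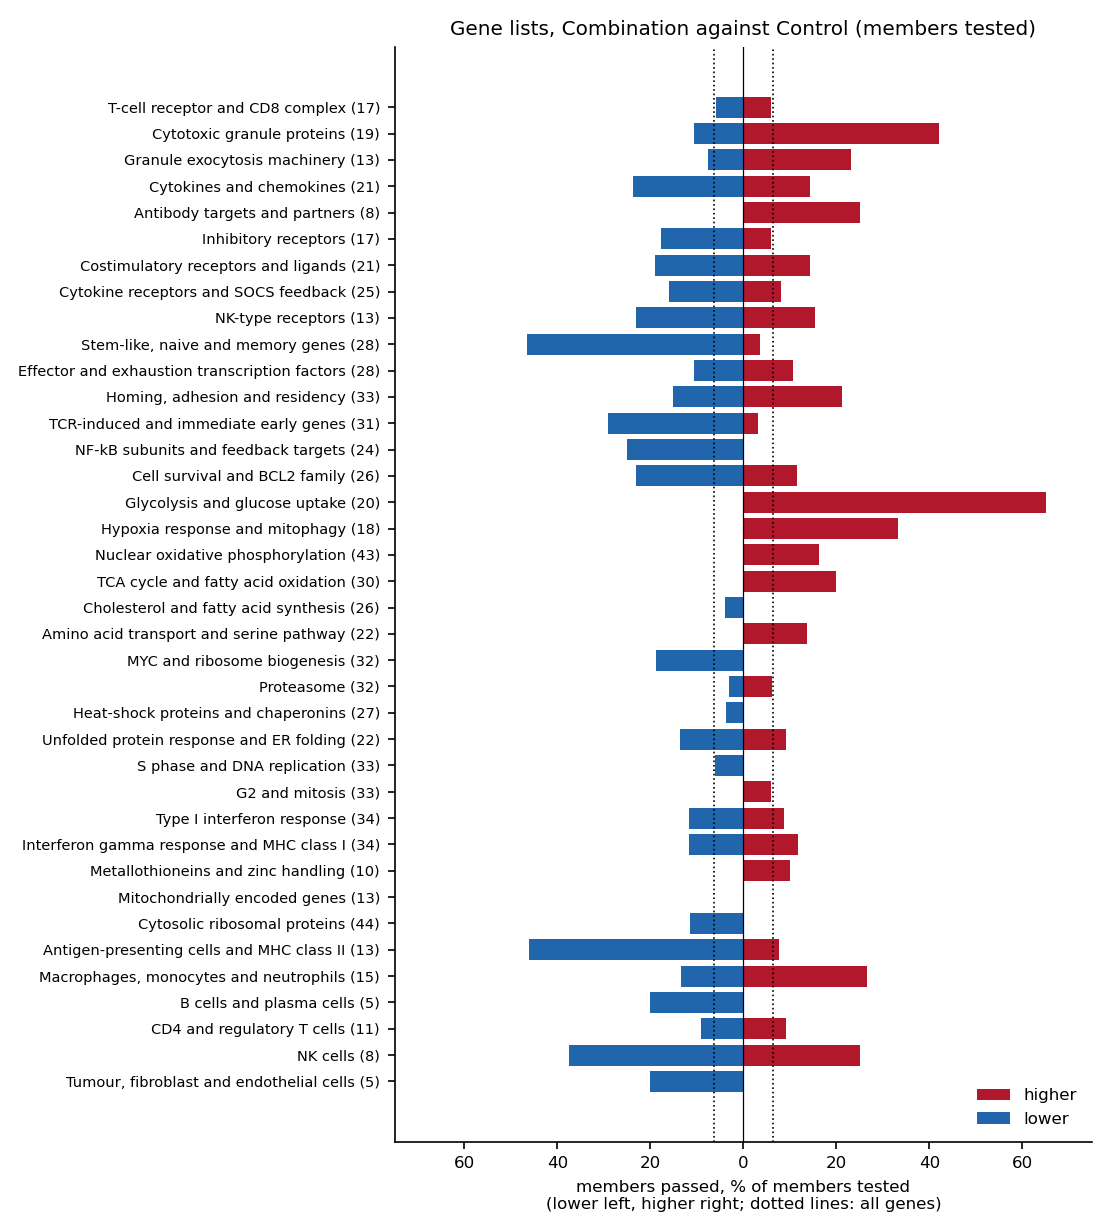
Share of tested members that passed in each gene list, higher to the right (red) and lower to the left (blue), in percent, with the number of members tested in brackets and the shares over all genes (6.34% and 6.24%) as dotted lines. Glycolysis reaches 65.0% to the right with none to the left, and the stem-like and antigen-presenting lists extend farthest to the left.

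Genes of MHC class II, which antigen-presenting cells hold, were also lower in the Combination. Of 13 tested genes of antigen-presenting cells and MHC class II, 6 fell and 1 rose (median -0.73), and the number that rose was 0 without Control 1, Control 5, Combination 2 or Combination 5 and 2 without Control 3 or Combination 3. Cd74, the invariant chain of MHC class II, stood at 97.9, 97.6, 197, 113 and 67.8 FPKM in Control and at 34.3, 41.8, 13.9, 36.5 and 22.9 in the Combination. Its groups did not overlap (change -1.91, SE 0.32, limma adjusted p = 0.00088). H2-Aa, an MHC class II alpha chain, stood at 18.2, 13.9, 69.6, 13.1 and 15.5 in Control and at 5.60, 0.871, 1.01, 2.78 and 5.84 in the Combination. Control 3 was far above the rest, and the groups were apart without it too (change -2.57, SE 0.57, limma adjusted p = 0.0063). Tyrobp and Fcer1g, signalling adaptors of NK and myeloid receptors, changed by -2.09 and -1.45. Of 8 tested NK-cell genes 3 fell (Cd7, Tyrobp and Fcer1g) and 2 rose (Klrc1 and Nkg7). The summed FPKM of the 13 genes on the NK list, Nkg7 among them, was 3620 to 7320 in Control and 6960 to 8500 in the Combination. The summed FPKM of the 20 genes on the antigen-presenting list ran from 168 to 508 in Control and from 70.6 to 109 in the Combination, without overlap. The macrophage genes Csf1r, C1qa and Adgre1 reached at most 0.395, 0.901 and 0.167 FPKM in Control, and Csf1r and C1qa were at 0 in all 5 Combination libraries. Other macrophage genes were detected: C1qb, C1qc, Aif1, Apoe and Arg1 had a mean log2(FPKM + 1) of 0.698 to 1.989 over the 20 libraries. Their changes ran from -0.66 to -0.91 and did not pass (limma adjusted p from 0.20 to 0.52). Lyz2, lysozyme of myeloid cells, ran from 0 to 64.9 in Control, highest in Control 3, and from 0.848 to 11.4 in the Combination, and did not pass. Of 15 tested genes of macrophages, monocytes and neutrophils 4 rose, 2 without Control 1, and 2 fell. The sum over that list was 1320 to 2100 in Control and 1830 to 2430 in the Combination, and it includes genes such as Ccr2 that T cells also express. In bulk RNA, fewer cells of a type and less RNA per cell cannot be told apart.

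With the mean level of 28 antigen-presenting and myeloid markers as a covariate, 772 genes passed, 434 higher and 338 lower. The 28 markers include H2-Aa, H2-Ab1, Fcer1g, Tyrobp and Cd74 themselves, and Ccr2, so these genes were adjusted for a mean of which they are part. In that fit the changes were -1.47 for H2-Aa (limma adjusted p = 0.11), -0.85 for H2-Ab1 (0.24), -0.79 for Fcer1g (0.21), -1.35 for Tyrobp (0.071) and -1.33 for Cd74 (0.021). The marker level ran from 3.34 to 4.74 on the log2 scale in Control and from 3.12 to 3.60 in the Combination, and its part in the other results was not tested further. In that fit 13 of 20 glycolysis genes rose, 6 of 19 cytotoxic granule proteins rose and 7 of 28 stem-like genes fell. Of 105 named genes that passed against Control, 28 did not pass in that fit. Besides H2-Aa, H2-Ab1, Fcer1g and Tyrobp they were Cd8a, Pdcd1, Nkg7, Stx11, Il7r, Tbx21, Cd70, Ly6d, Ccl3, Nr4a1, Anxa1, Fabp5, Oasl2, Ly6e, Ltb, Bcl2, Fas, Mx1, Tnfaip3, Asns, Ndrg1, Ankrd37, Dnajb1 and Srebf1, with adjusted p from 0.050 to 0.22.

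Further large changes were those of Cd7 from the NK list, Ighm from the B-cell list and other genes. Of 5 tested genes on the B-cell list, 5 had a negative change (median -0.82) and 1 passed, Ighm. Cd7, a surface protein of T and NK cells, fell from 187 ± 29.6 to 52.0 ± 27.4 (-1.99, limma adjusted p = 9.76e-05), Ly6d, a small surface protein of lymphocytes, from 24.8 ± 11.4 to 4.24 ± 3.28 (-2.47), and Ighm, the immunoglobulin mu chain gene, from 50.8 ± 20.6 to 20.1 ± 4.10 (-1.24). Further large falls were Tsc22d1 (-1.81), Timp2, an inhibitor of metalloproteinases (-1.60), and Nrarp, a target and inhibitor of Notch (-1.47). Anxa1, the lipid-binding protein annexin A1, rose by 1.68 (limma adjusted p = 0.012).

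Fewer alpha V and alpha J segments of the T-cell receptor were detected in the Combination than in Control. Each chain of a T-cell receptor joins 1 V and 1 J segment, so segment use depends on which clones are present but does not count them. Of 112 alpha V segments (Trav) in the table, 92, 86, 86, 84 and 80 reached 1 FPKM in Control and 66, 46, 71, 60 and 22 in the Combination. All 5 Combination libraries were below all Control libraries, with Combination 5 the lowest (exact two-sided permutation test, n = 5 per group, p = 0.0079, the smallest it can give, adjusted p = 0.032 over 8 such tests). Of 51 alpha J segments (Traj), 36 to 44 reached 1 FPKM in Control and 30 to 34 in the Combination (exact permutation p = 0.0079, adjusted p = 0.032). The call on this Traj count was lost on leaving out any of 8 of the 10 libraries (exact permutation, adjusted p = 0.063). The leading Traj segment held 19.3% ± 5.50 of the summed Traj FPKM in Control and 40.5% ± 9.75 in the Combination (n = 5, exact permutation p = 0.016, adjusted p = 0.042). That call was lost on leaving out any of 8 of the 10 libraries (adjusted p = 0.085). The leading Trav segment held 17.3% ± 6.65 of the summed Trav FPKM in Control and 40.7% ± 17.7 in the Combination and missed the threshold (n = 5, exact permutation p = 0.04, adjusted p = 0.063).

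None of the 4 beta-chain measures passed, and the count of beta J segments could not, since it was the same in every library. All 13 beta J segments (Trbj) reached 1 FPKM in every library. Of 22 beta V segments (Trbv) in the table, 20.2 ± 0.837 did so in Control and 18.4 ± 2.51 in the Combination, with overlap (exact permutation, n = 5, adjusted p = 0.22). The leading Trbj segment held 29.0% ± 7.30 and 46.8% ± 14.9 of the summed Trbj FPKM (exact permutation, n = 5, p = 0.048, adjusted p = 0.063). The leading Trbv segment held 34.7%, 37.8%, 18.1%, 31.7% and 28.8% of the summed Trbv FPKM in Control and 54.5%, 72.3%, 31.4%, 46.9% and 90.0% in the Combination (exact permutation, n = 5, p = 0.032, adjusted p = 0.063). Combination 5 was the highest, with Trbv17 in the lead, while Combination 3 stayed within the Control range. The leading Trbv segment was Trbv13-1 in Combination 1 and 2, Trbv4 in Combination 3 and Trbv3 in Combination 4. Summed Trav FPKM overlapped between the groups, at 952 to 1290 in Control and 814 to 1750 in the Combination. Of 106 tested Trav segments 11 fell and 0 rose, beside 6.24% lower and 6.34% higher over all genes tested. A negative change was found in 90 (median -0.92, beside -0.036 over all genes tested). These are the segments counted above, so the values are not separate evidence. In Pembrolizumab 72 to 75 Trav segments reached 1 FPKM and in ABL503 68 to 85. Traj segments numbered 31 to 34 in Pembrolizumab, which overlaps the 30 to 34 of the Combination, and 34 to 41 in ABL503. These segment counts were not tested between the treated groups. These measures were chosen after their values were seen. Leaving out 1 library gave differences of -24.8 to -37.1 Trav segments. The call on the Trav count was kept only without Control 5 (exact permutation, adjusted p = 0.042) or Combination 3 (0.025). Without any other library it was lost (adjusted p = 0.063), since 4 libraries against 5 allow fewer arrangements. V segments share sequence, and the number of sorted cells per library, which can set how many segments are seen, is not given, so its part was not tested.

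**Figure D4:**
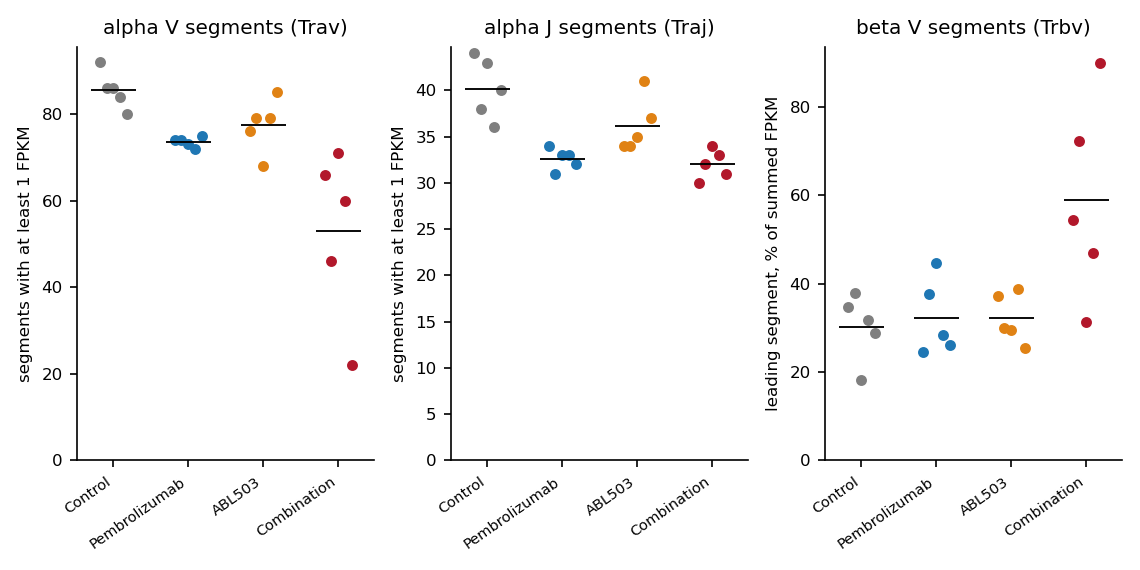
Number of Trav and of Traj segments with at least 1 FPKM, and the share of summed Trbv FPKM held by the leading Trbv segment in percent, in each library of the 4 groups, with group means as lines and vertical axes from 0. Combination libraries have 22 to 71 Trav segments against 80 to 92 in Control, and their leading Trbv shares spread from 31.4% to 90.0%.

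The Combination was set beside each antibody alone to show where it differed. The 3 treated groups were compared with the same 5 Control libraries, so their changes are not independent. Against Pembrolizumab only 19 of 11794 genes passed (0.161%), 8 higher and 11 lower in the Combination, while 1552 had an unadjusted p under 0.05. Against ABL503 534 passed (4.53%), 270 higher and 264 lower. Prf1 changed by 2.27 with Pembrolizumab, 0.84 with ABL503 and 2.06 with the Combination, and differed from ABL503 (by 1.22, limma adjusted p = 0.0026) but not detectably from Pembrolizumab (-0.21, SE 0.21). Tnfrsf9 changed by 1.15, 0.60 and 1.26 in the same order, and Bnip3 by 2.16, 0.96 and 2.40. Both differed from ABL503 (limma adjusted p = 0.0030 and 0.0059).

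A second group of genes had the larger single-agent estimate with ABL503, although ABL503 and Pembrolizumab were not tested against each other here. Il1r2 changed by 0.57 with Pembrolizumab, 2.85 with ABL503 and 2.34 with the Combination, Cd70 by 0.52, 2.84 and 2.0, Tnfsf4 by 0.39, 2.22 and 1.53, and Gzmc by 1.79, 3.81 and 3.58. The Combination differed from Pembrolizumab in none of these 4 after adjustment (limma adjusted p from 0.060 for Il1r2 to 0.22 for Gzmc). Serpine2 changed by 3.41, 2.45 and 4.63, and Ly6a2 by 1.61, 0.48 and 2.93. Both exceeded ABL503 in the Combination (limma adjusted p = 0.0082 and 0.00049), and neither passed against Pembrolizumab (0.24 and 0.098).

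Among the 19 genes that differed from Pembrolizumab, Ly6e, a lymphocyte surface protein, was higher in the Combination by 0.79 (limma adjusted p = 0.0019) and Lgals9, galectin 9, by 0.71 (limma adjusted p = 0.0019). Ltb, lymphotoxin beta, was higher by 0.69, the tetraspanin Tspan31 by 0.62, Rab8a, a GTPase of vesicle transport, by 0.49 and Stat4 by 0.47. Tnfsf14 was lower (-1.16), as were Ier3, an immediate early gene (-1.07), the lipocalin Lcn4 (-1.15) and Cd9 (-0.85). The calls of Tnfsf14, Ltb, Cd9, Tspan31, Lcn4, Rab8a and Stat4 were lost on leaving out between 3 and 8 of 10 libraries in turn, with adjusted p up to 0.13, and the number of genes passed was 6 without Pembrolizumab 1 or Combination 2 and 49 without Pembrolizumab 2. Against Control, Ly6e (0.38), Lgals9 (0.33) and Ltb (0.42) passed with all libraries, and each call was lost without Control 1. Il2 differed from ABL503 by -2.47, Car2, carbonic anhydrase 2, by -1.58 and Cd83, a surface protein of activated lymphocytes and dendritic cells, by -1.67 (limma adjusted p from 0.00049 to 0.0016).

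The interaction compares the effect of pembrolizumab on top of ABL503 with its effect alone, and is 0 where the Combination equals the sum of the single-agent log2 changes. It passed in 24 genes (0.203%), 5 positive and 19 negative. For Zbtb32 the Combination change of 1.78 stood below the sum of 2.52 and 1.51 (interaction -2.25, SE 0.33, limma adjusted p = 0.0046). Ms4a4a, a membrane protein of activated T cells, had changes of 1.74, 1.33 and 1.44 (interaction -1.63, limma adjusted p = 0.036), and Hsph1, a heat-shock protein, of 0.63, 1.64 and 0.19 (interaction -2.09, limma adjusted p = 0.012). Lgals9 changed by -0.38 with Pembrolizumab, -0.26 with ABL503 and 0.33 with the Combination, an interaction of 0.97 (SE 0.13, limma adjusted p = 0.0046). Cd9 changed by 0.05, 0.35 and -0.81 (interaction -1.20), and Stat4, a signal transducer of interleukin 12, by -0.66, -0.28 and -0.19 (0.75). The number of interaction genes ranged from 6 without Pembrolizumab 1 to 49 without Pembrolizumab 4.

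**Figure D5:**
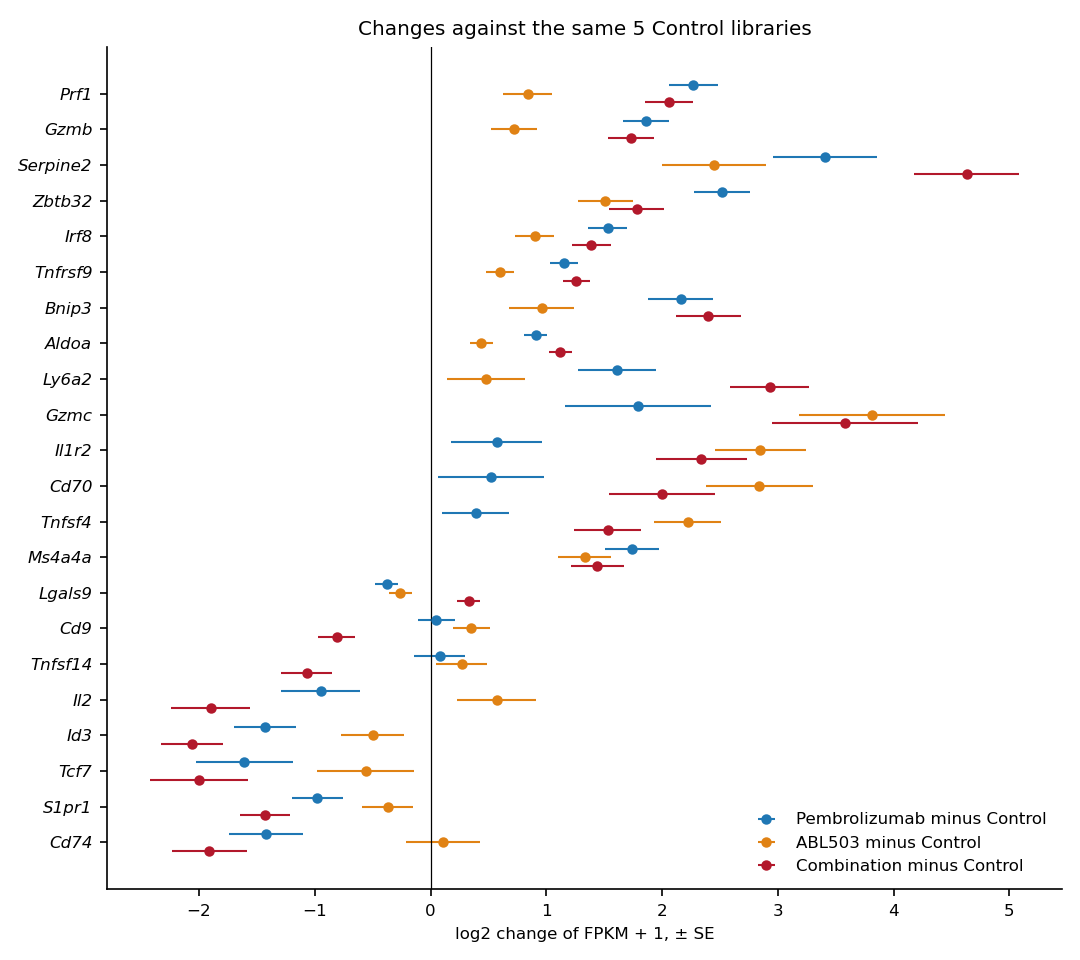
Log2 change of FPKM + 1 against the same 5 Control libraries, with the SE as a bar, for 22 genes with Pembrolizumab (blue), ABL503 (orange) and the Combination (red). Prf1 and Gzmb lie near the Pembrolizumab values, Il1r2 and Cd70 nearer to ABL503, and Cd9 and Tnfsf14 lie below 0 for the Combination alone.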

How the data were processed

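RNA of sorted CD8+ tumour-infiltrating cells was made into libraries with a SMART-Seq v4 kit, per the labels' protocols. The deposited table gives 1 value per gene symbol and library, read here as FPKM from its decimals and sums, since no header names the unit. HISAT2, StringTie and GRCm38 (mm10) stand in the submitters' processing notes, with versions not given in the sources used here. FPKM carries no read counts, so count tests were not run and depth is unknown.

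Genes with at least 1 FPKM in 5 of 20 libraries (11794 of 45777) were fitted as log2(FPKM + 1) in limma 3.58.1 (R 4.3.3), with 4 group means, 16 residual degrees of freedom, an intensity trend and Benjamini-Hochberg adjustment over all genes. The fit was tested on simulated data. Python 3.11.15 and pandas 2.3.3 summarised the results. Promoters and coordinates came from RefSeq (GRCm38.p6), which held 40686 of the symbols.

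Named genes were the 15 largest rises and falls with a mean log2 of at least 3, the 10 smallest p, up to 6 members per gene list with the smallest p, a fixed panel, and the 5 largest rises and falls in each of the other 3 contrasts, without predicted models, pseudogenes and receptor segments. Members, lists and panel were chosen with earlier results of these data known. Alternatives were no filter, a stricter filter, a pseudocount of 0.1, quantile and equal-sum scaling, the 2 groups alone, array weights, a replicate block, covariates and leaving out libraries. A few withheld genes are not reported here.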

Additional observations from a re-analysis of the deposited data

Results flagged for a closer look

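Within a group of 5 libraries, 1 library stood apart from the other 4 in several values, by a gap of more than 0.71 of the group's range. Chance alone gives this in about 1 in 20 groups, and 121 genes were looked at in 2 groups each. In Control 3, H2-Aa stood at 69.6 FPKM, H2-Ab1 at 138 and Lyz2 at 64.9, all above the other Control libraries. In Control 2, Gzmc (167), Serpine2 (6.42) and Ccl3 (570) were the highest of the group and Acadl (30.0) the lowest. In Control 1, Tnfrsf9 (131) and Gzme (1.18) were the highest and Ltb (106) the lowest, and Mx1 was highest in Control 4 (8.41). In Combination 5, Tnfrsf9 (320), Pgk1 (492) and Bnip3 (125) were the highest. In Combination 3, Nt5e (11.8) and Ctla4 (256) were the highest and Asns (12.6) the lowest. Tnip1 was lowest in Combination 2 (25.7), and Lgals9 (158) and Lyz2 (11.4) were highest in Combination 4. Among receptor segments, the leading Trav segment held 28.9% in Control 5, the highest of its group, and 14 Trbv segments reached 1 FPKM in Combination 5, the fewest of its group.

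The effect of adding pembrolizumab differed with and without ABL503, by the interaction in limma, in 8 named genes. It was negative for Zbtb32 (-2.25), Hsph1 (-2.09), Ms4a4a (-1.63), Ier3 (-1.62) and Cd9 (-1.20), and positive for Lgals9 (0.97), Stat4 (0.75) and Rab8a (0.68). The calls of Ms4a4a and Rab8a were each lost on leaving out any of 13 of the 20 libraries, that of Cd9 on leaving out any of 8 and that of Stat4 on leaving out either of 2.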

How the results depend on the processing

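Against Control, 1484 genes passed (748 higher, 736 lower). The numbers were 939 (470, 469) with no filter, 772 (434, 338) with the other-cell covariate, 199 (95, 104) with a minimum log2 change of 1 and 2295 (1123, 1172) at an adjusted p under 0.1. Without both Control 1 and Control 3, chosen after seeing the data, they were 737 (403, 334). With the Combination and Control libraries alone, 993 passed (518, 475). In that fit 14 of the 105 named genes that passed with all libraries did not pass. Among them were Nkg7, Cd8a and Pdcd1 (limma adjusted p = 0.061, 0.066 and 0.079). Leaving out 1 library gave 957 to 1659 passed, 503 to 853 higher and 454 to 806 lower, the fewest each time without Combination 2. Against Pembrolizumab (19), 3 passed with no filter, 85 with array weights, 9 with the other-cell covariate and 6 to 49 without 1 library. Against ABL503 (534), the numbers were 271, 935 and 223 under the same settings, 997 with the immediate early covariate and 263 to 747 without 1 library. For the interaction (24), they were 6 with no filter, 38 with at least 1 FPKM in 10 libraries, 50 with array weights, 41 with the immediate early covariate, 9 without Control 1 and Control 3 and 6 to 49 without 1 library. The cause of these moves was not tested. With a replicate block 1387 genes passed (704 higher, 683 lower). Libraries with the same number share only a number: their deviations correlated at -0.0442 to 0.0888, and 1 of 5 numbers matched itself best.

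Of 105 named genes that passed, 69 passed under every alternative other than the minimum log2 change of 1, which was left out of this count. None of the 105 changed direction. Among genes that had not passed, the change of Tox turned to 0.07 with the other-cell covariate and ran from -0.49 to 0.16 without 1 library (positive without Combination 1 or Combination 5). Lyz2 turned to 0.59 with the covariate, and Ier3 ran from -0.09 to 0.19 without 1 library (negative without Control 5 or Combination 2). The difference in Trav segments was -22.6 at 0.5 FPKM (adjusted p = 0.054) and -20.4 at 5 FPKM (adjusted p = 0.063), by the exact permutation test. By the same test the difference in Traj segments was -6.8 at 0.5 FPKM (adjusted p = 0.054) and -8.4 at 5 FPKM (adjusted p = 0.042).

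Without counts, genes at low FPKM carry an unknown counting error. The labels name neither separate mice nor the control treatment.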
